A study of Mus musculus with 9 samples.

Results

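The genes described here are 10 neuronal regulators of RNA splicing: Rbfox1, Rbfox2, Rbfox3, Nova1, Nova2, Elavl2, Elavl4, Ptbp2, Celf2 and Celf4. They were chosen by name, as 10 of the 23319 gene symbols in each of 9 count tables, and every one of them had reads in all 9 libraries and passed the filter on low counts. Each library was made from a pool of 150 cells picked by hand for their green fluorescence from cortical strips with layer 2/3 cells of mice at postnatal day 5, cut from the medial prefrontal and anterior cingulate cortex. The 3 Nkx2.1 pools were taken from Nkx2.1-CreER;Ai47 mice that received tamoxifen at embryonic day 17, and the labels' protocol calls these cells ChC-GFP. The 3 SOM pools were taken from SOM-Cre;Ai47 mice and the 3 VIP pools from VIP-Cre;Ai47 mice, neither with tamoxifen. All groups carry Ai47, a Cre-dependent fluorescent reporter, so a cell was marked by the gene that drives the Cre: Nkx2-1 while tamoxifen was active, or the somatostatin or the vasoactive intestinal peptide gene at any earlier time. The labels do not say whether the pools of a group are from different animals, so that a p-value describes the spread among these samples alone, which may be technical.

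Neurons use a set of RNA-binding proteins to choose exons that other cells skip or to skip exons that other cells use. Rbfox proteins bind a short element in introns and promote or block a nearby exon depending on its side, Nova proteins bind clusters of a short motif in transcripts of synaptic proteins, and the neuronal Elavl (Hu) proteins and the Celf proteins bind U-rich or GU-rich sequence and act on both splicing and mRNA stability. Ptbp2 takes over from Ptbp1 when precursors become neurons and holds back exons of mature neurons until its own level declines. Nkx2-1 and somatostatin lines mark interneurons born in the medial ganglionic eminence, and the vasoactive intestinal peptide line marks interneurons born in the caudal ganglionic eminence. The values below are reads per gene, which measure how much RNA of a regulator was present and not how its target exons were spliced.

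Levels are given as CPM, the reads of a gene per 1000000 reads in named genes of that library. Reads in named genes numbered 10850303 to 12465997 in the Nkx2.1 pools, 6484488 to 9184008 in the SOM pools and 8071044 to 11439809 in the VIP pools. Genes with a read numbered 8180 to 10576 in Nkx2.1 pools, 10923 to 11490 in SOM pools and 9672 to 10927 in VIP pools. The lowest count of any of the 10 regulators was 95 reads, for Nova2 in VIP replicate 1. Markers of the lines followed the labels, apart from Nkx2-1, which had few reads. Sst was at 0 to 29.3 CPM in Nkx2.1 pools, 1472 to 2254 CPM in SOM pools and 0 to 0.124 CPM in VIP pools, and Vip, at 414 to 870 CPM in VIP pools, did not pass 2.86 CPM elsewhere. Lhx6, a transcription factor of interneurons from the medial ganglionic eminence, was at 715 CPM or more in Nkx2.1 pools, 619 CPM or more in SOM pools and at most 0.248 CPM in VIP pools. Nkx2-1 itself had 12, 10 and 1 reads in Nkx2.1 pools, or 0.0843 to 1.11 CPM. SOM replicate 3 had 1 read (0.117 CPM) and the other libraries none. Nkx2-1 was not tested and, at these counts, does not separate Nkx2.1 from SOM pools. The Gad1 mRNA of GABAergic cells was at 783 CPM or more in all libraries. The 7 GABAergic markers summed to 3625 to 6107 CPM in Nkx2.1 pools, 2494 to 2824 CPM in SOM pools and 3144 to 4396 CPM in VIP pools. Much of the sum in Nkx2.1 pools was Erbb4, at 1643, 2472 and 1368 CPM. Erbb4 was at 76.8 to 143 CPM in SOM pools and 233 to 1104 CPM in VIP pools. For Nkx2.1 against SOM the fitted change was above 0 for 5 of the 7 and below 0 for 2. There edgeR called 1 of the 7 higher, beside 0.0652% of all genes. The vesicular GABA transporter gene Slc32a1, also one of the 7, was lowest in Nkx2.1 pools, at 0.737, 4.09 and 8.51 CPM there, 15.5 to 76.5 CPM in SOM pools and 54.5 to 82.7 CPM in VIP pools. DESeq2 called this in both comparisons (adjusted p = 0.0125 against SOM and 0.00119 against VIP) and edgeR in neither (adjusted p = 0.411 and 0.248). The Nkx2.1 pools were the least alike among themselves: Pearson's r of log2(CPM + 1) across genes, which are not independent replicates, was 0.486 to 0.507 between them, 0.667 to 0.714 between SOM pools and 0.574 to 0.644 between VIP pools. Nkx2.1 replicate 1 stood apart in the summed level of 8 astrocyte markers. The sum was 2892 CPM there and 258 and 628 CPM in the other Nkx2.1 pools. It was 65.1 to 219 CPM in SOM pools and 279 to 448 CPM in VIP pools. Slc1a3 (1339 CPM) and Fabp7 (1006 CPM) made up most of the sum in Nkx2.1 replicate 1. Not every marker was highest there. Slc1a2 was at 95.1 CPM there and 233 to 376 CPM in VIP pools. Gja1 was highest in VIP replicate 2 (15.6 CPM) and Gfap in Nkx2.1 replicate 2 (40.8 CPM). Markers of the oligodendrocyte lineage summed to 236 to 307 CPM in Nkx2.1 pools, 99.1 to 202 CPM in SOM pools and 1.73 to 107 CPM in VIP pools. Every Nkx2.1 pool lay above all others in this sum, but not in each gene. In Nkx2.1 replicate 2 nearly all of it was Pdgfra, at 245 CPM. Olig2 had no read in Nkx2.1 pools, and Mbp was highest in SOM replicate 3, at 164 CPM. edgeR called none of the 4 tested markers. DESeq2 called 2 higher in Nkx2.1 against VIP and 1 higher in SOM against VIP, beside 4.37% and 3.03% of all genes. Excitatory neuron markers summed to 0 to 94.5 CPM in Nkx2.1 pools, 1.63 to 10.0 CPM in SOM pools and 3.50 to 157 CPM in VIP pools. Cell division markers summed to 220 CPM in Nkx2.1 replicate 1, 147 CPM in VIP replicate 1 and at most 49.7 CPM elsewhere. Microglial markers summed to at most 18.3 CPM and endothelial and mural markers to at most 18.4 CPM in any library. Tyrobp, Cldn5, Kdr and Pdgfrb were at 0 in all 9. Cx3cr1 was also at 0, but it lies on the minus strand of chromosome 9. There 486 of 522 protein-coding genes (93.1%) had no read in any library, so nothing can be read from the 0 of Cx3cr1.

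Rbfox1 had the largest fitted differences from the VIP pools among the 10 regulators. Loss of Rbfox1 from mouse cortical interneurons is known to alter the synapses that parvalbumin and somatostatin cells form. Rbfox1 had 1133, 842 and 1745 CPM in the 3 Nkx2.1 pools, 822, 524 and 1255 CPM in the 3 SOM pools and 111, 185 and 152 CPM in the 3 VIP pools. Every Nkx2.1 and every SOM pool lay above every VIP pool, while Nkx2.1 and SOM pools overlapped. The means were 1240 ± 461 CPM in Nkx2.1 pools, 867 ± 368 CPM in SOM pools and 149.5 ± 37.1 CPM in VIP pools (SD, n = 3 each). Rbfox1 rose in Nkx2.1 against VIP pools, with a ratio of means of 8.29 and a fitted log2 fold change of 3.24 ± 0.43 (SE; edgeR quasi-likelihood test, adjusted p = 0.0126 over 10728 genes). Leaving out VIP replicate 1 took this adjusted p to 0.0653, and leaving out VIP replicate 3 took it to 0.0769, with fold changes of 3.14 and 3.25. Without Nkx2.1 replicate 1, the library with the highest astrocyte marker sum, the fold change was 3.23 with an adjusted edgeR p of 0.0223. Nkx2.1 replicate 2, which stayed in that fit, had the next highest astrocyte marker sum, 628 CPM. The sum of oligodendrocyte lineage markers was also highest in Nkx2.1 pools. Whether the astrocyte or the oligodendrocyte lineage markers had a part in the Rbfox1 values was not tested. In SOM against VIP pools the fitted log2 fold change was 2.58 ± 0.42 and the ratio of means 5.80, which did not pass the threshold (edgeR, adjusted p = 0.0659). DESeq2 and the edgeR fit without a filter on low counts passed it there, with adjusted p of 0.000554 and 0.0332. Nkx2.1 and SOM pools differed by a log2 fold change of 0.66 ± 0.39, which did not pass (edgeR, adjusted p = 0.617). In bulk RNA, fewer cells with a transcript and less of it per cell cannot be told apart.

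Rbfox1 spans chr16:5885355-7411526 on the plus strand of GRCm38 (GENCODE vM21), and RefSeq gives starts of transcription for it that lie 1185 kb apart. Reads counted per gene do not tell which start was in use, so the difference above is a sum over both. The 250 bases before each start are shown because Rbfox1 is the gene whose level passed the test. They are read on the plus strand of GRCm38.p6, with capitals marking CANNTG, the E-box bound by basic helix-loop-helix factors.
Rbfox1 first start, chr16:5884543-5884792: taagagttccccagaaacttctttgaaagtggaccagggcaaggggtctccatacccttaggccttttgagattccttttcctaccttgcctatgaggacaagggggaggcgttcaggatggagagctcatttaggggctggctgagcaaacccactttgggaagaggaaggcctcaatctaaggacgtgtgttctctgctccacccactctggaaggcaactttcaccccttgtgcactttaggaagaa
Rbfox1 second start, chr16:7069585-7069834: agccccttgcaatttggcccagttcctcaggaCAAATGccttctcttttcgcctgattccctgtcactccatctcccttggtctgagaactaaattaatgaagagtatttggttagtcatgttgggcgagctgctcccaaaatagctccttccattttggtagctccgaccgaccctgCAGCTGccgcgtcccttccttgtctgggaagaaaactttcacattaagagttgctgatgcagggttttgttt
The first window holds no CANNTG and the second holds 2, against 66.2% of all 32817 RefSeq windows of this length with at least 1, a palindromic motif that reads the same on both strands. TAATTA, a core bound by many homeodomain factors and also palindromic, is in neither window and is found in 4.845% of all windows. The first window has 51.2% G and C and 2 CG pairs, and the second has 48.4% and 6, beside medians of 52.4% and 6 over all windows.

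The other regulators are spread over 8 chromosomes: Rbfox2 at chr15:77078990-77307004, Rbfox3 at chr11:118489762-118911597, Nova1 at chr12:46694517-46818929, Elavl2 at chr4:91250763-91400785, Elavl4 at chr4:110203722-110351909, Ptbp2 at chr3:119718742-119784466, Celf2 at chr2:6539694-7509563 and Celf4 at chr18:25477632-25754157, all on the minus strand of GRCm38, and Nova2 at chr7:18925888-18965319 on the plus strand. Exons of Nova1, Nova2 and Celf2 overlap exons of Gm33869, Gm26821 and Gm26565, none of which has an entry in the tables.

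**Figure D1:**
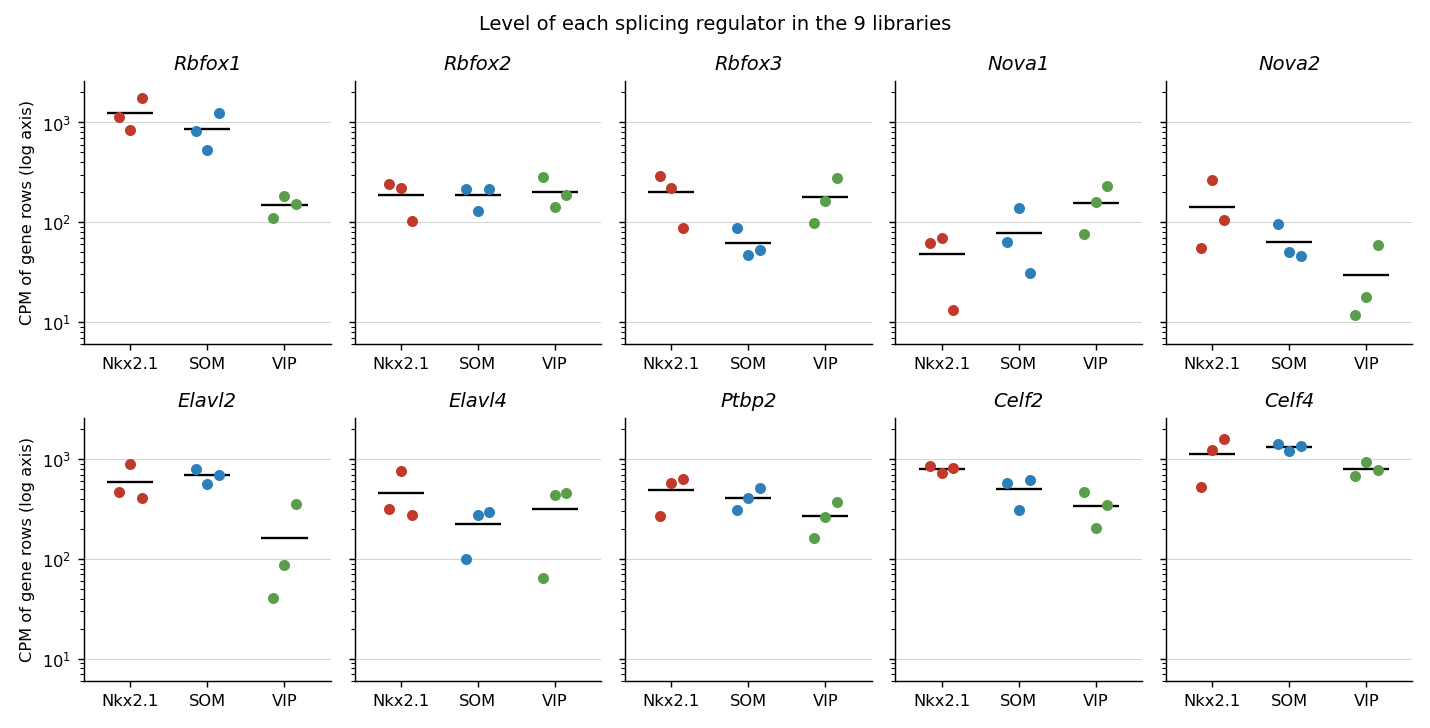
Level of each of the 10 regulators in CPM on a log axis, with 1 point per library, a bar at the mean of 3 libraries, and Nkx2.1, SOM and VIP groups from left to right. Rbfox1 lies between 524 and 1745 CPM in Nkx2.1 and SOM pools and between 111 and 185 CPM in VIP pools, while Rbfox2 lies in 1 range in all groups.

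The other Rbfox genes did not share this pattern. Rbfox2, which unlike its relatives is expressed in many tissues besides brain, had 239.7, 220.8 and 102.1 CPM in Nkx2.1 pools, 214, 130 and 217 CPM in SOM pools and 282, 141 and 186 CPM in VIP pools. All 3 groups overlapped, and the fitted log2 fold changes were 0.20 ± 0.59 for Nkx2.1 against SOM, 0.11 ± 0.59 for Nkx2.1 against VIP and -0.10 ± 0.59 for SOM against VIP. None passed, with adjusted p of 0.979, 0.969 and 0.99963 (edgeR). Rbfox2 also had the narrowest range of the 10 genes, 2.77-fold from the lowest to the highest library. Rbfox3 encodes NeuN, the nuclear protein used to stain neurons. It had 288, 219 and 88.5 CPM in Nkx2.1 pools, 88.0, 46.7 and 53.3 CPM in SOM pools and 97.6, 165 and 277 CPM in VIP pools. The SOM pools were the lowest 3 of the 9, although Nkx2.1 replicate 3 and SOM replicate 1 were nearly level. The log2 fold change was 1.88 ± 0.73 for Nkx2.1 against SOM and -1.47 ± 0.72 for SOM against VIP, and neither passed (edgeR, adjusted p = 0.378 and 0.805). Nkx2.1 and VIP pools overlapped, at 0.41 ± 0.71 (edgeR, adjusted p = 0.879).

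Nova1 and Nova2, which encode KH-domain proteins with nearly the same motif, were ordered in opposite ways across the lines. In mice, Nova2 controls exons of Dab1 and thereby the migration of cortical neurons. Nova2 had 55.8, 263 and 106 CPM in Nkx2.1 pools, 96.7, 49.8 and 45.9 CPM in SOM pools and 11.8, 17.8 and 59.8 CPM in VIP pools. The VIP pools held the 2 lowest values, but VIP replicate 3 lay above 1 Nkx2.1 and 2 SOM pools. Its log2 fold change was 2.42 ± 1.04 for Nkx2.1 against VIP, 1.27 ± 1.00 for Nkx2.1 against SOM and 1.15 ± 1.00 for SOM against VIP, and edgeR passed none (adjusted p = 0.307, 0.790 and 0.99963). DESeq2 gave an adjusted p of 0.0492 for Nkx2.1 against VIP, just inside the threshold. Nova1 had 62.1, 69.1 and 13.1 CPM in Nkx2.1 pools, 63.4, 138 and 31.0 CPM in SOM pools and 75.7, 160 and 232 CPM in VIP pools. Every Nkx2.1 pool lay below every VIP pool, and the SOM pools overlapped with both. The Nova1 fold change for Nkx2.1 against VIP was -1.44 ± 0.98 on the log2 scale and did not pass (edgeR, adjusted p = 0.575). For Nkx2.1 against SOM it was -0.47 ± 0.97, and for SOM against VIP -0.97 ± 0.97, also not past the threshold (edgeR, adjusted p = 0.972 and 0.99963).

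Elavl2 followed the lines in the manner of Rbfox1, but with a wider spread in the VIP pools. Elavl2 encodes HuB, and it had 468, 895 and 407 CPM in Nkx2.1 pools, 802, 570 and 693 CPM in SOM pools and 40.4, 87.0 and 355 CPM in VIP pools. All Nkx2.1 and SOM pools lay above all VIP pools, of which replicate 3 came close to the lowest Nkx2.1 pool. The log2 fold changes were 2.08 ± 0.71 for Nkx2.1 against VIP and 2.15 ± 0.71 for SOM against VIP, and neither passed (edgeR, adjusted p = 0.233 and 0.466). Without VIP replicate 3 they were 3.42 and 3.48. Nkx2.1 and SOM pools overlapped, with a log2 fold change of -0.06 ± 0.68 (edgeR, adjusted p = 0.996) that was 0.04 with DESeq2 and with RLE size factors. Elavl4 encodes HuD, a stabiliser of transcripts in growing axons such as that of Gap43. It had 317, 769 and 277 CPM in Nkx2.1 pools, 100.5, 275 and 296 CPM in SOM pools and 64.6, 433 and 461 CPM in VIP pools. All 3 groups overlapped, and the log2 fold changes of 1.18 ± 0.74, 0.72 ± 0.73 and -0.46 ± 0.73 for Nkx2.1 against SOM, for Nkx2.1 against VIP and for SOM against VIP did not pass (edgeR, adjusted p = 0.647, 0.757 and 0.99963).

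Ptbp2 was present in every library, while its counterpart in precursors, Ptbp1, was at or near 0 in all but 1 library. Ptbp2 had 271, 582 and 634 CPM in Nkx2.1 pools, 311, 411 and 515 CPM in SOM pools and 163, 265 and 375 CPM in VIP pools. Its groups overlapped in each comparison. The log2 fold changes were 1.05 ± 0.45 for Nkx2.1 against VIP, 0.38 ± 0.44 for Nkx2.1 against SOM and 0.67 ± 0.44 for SOM against VIP, none of them past the threshold (edgeR, adjusted p = 0.302, 0.908 and 0.99963). Ptbp1 had 59.4, 0 and 0.59 CPM in Nkx2.1 pools, 0, 0.62 and 0 CPM in SOM pools and no read in the VIP pools, and was not tested. Its single higher value was in Nkx2.1 replicate 1, the library with the highest astrocyte marker sum and the highest cell division marker sum (220 CPM).

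The Celf genes were among the more even regulators. Celf2 had 845, 721 and 821 CPM in Nkx2.1 pools, 578, 308 and 617 CPM in SOM pools and 469.6, 206 and 347 CPM in VIP pools. Every Nkx2.1 pool lay above all the other libraries, and SOM and VIP pools overlapped. The log2 fold changes of Celf2 were 0.83 ± 0.42 for Nkx2.1 against SOM, 1.41 ± 0.43 for Nkx2.1 against VIP and 0.58 ± 0.42 for SOM against VIP, and none passed (edgeR, adjusted p = 0.504, 0.194 and 0.99963). Celf4, whose loss causes seizures in mice, had 524, 1224 and 1592 CPM in Nkx2.1 pools, 1428, 1212 and 1359 CPM in SOM pools and 679, 933 and 785 CPM in VIP pools. The SOM pools all lay above the VIP pools, and Nkx2.1 replicate 1 was the lowest library of all. Its log2 fold changes were -0.15 ± 0.32 for Nkx2.1 against SOM, 0.63 ± 0.33 for Nkx2.1 against VIP and 0.78 ± 0.33 for SOM against VIP, none past the threshold (edgeR, adjusted p = 0.972, 0.406 and 0.652).

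Across the 10 regulators, 1 was called in 1 of the 3 comparisons. In Nkx2.1 against VIP pools, Rbfox1 was the single regulator called higher and none was called lower, where 0.177% of all genes tested were called higher and 0.13% lower. The fitted change was above 0 for 9 of the 10 and below 0 for Nova1, with a median log2 fold change of 0.89 for the 10 and 0.00 for all genes. At an unadjusted edgeR p under 0.05, 5 of the 10 were higher and none lower, beside 5.73% and 9.43% of all genes, and DESeq2 called Rbfox1 and Nova2 higher and none lower, beside 4.37% and 8.62%. In Nkx2.1 against SOM pools none of the 10 was called, where 0.0652% of all genes were called higher and 0.028% lower, and the median was 0.52 for the 10 and -0.01 for all genes. At an unadjusted edgeR p under 0.05, 1 of the 10, Rbfox3, was higher there and none lower, beside 2.92% and 8.38% of all genes, and DESeq2 called none in either direction, beside 1.88% and 7.01%. In SOM against VIP pools none was called by edgeR, where 0.0559% were called higher and 0.0186% lower, and the median was 0.62 for the 10 and 0.00 for all genes. At an unadjusted edgeR p under 0.05, 3 of the 10 were higher there and none lower, beside 4.63% and 2.36% of all genes, and DESeq2 called Rbfox1 higher and none lower, beside 3.03% and 1.57%. Both comparisons with VIP use the same 3 VIP pools. General splicing factors, described below, had medians of 0.63 in Nkx2.1 against SOM, 0.49 in Nkx2.1 against VIP and 0.18 in SOM against VIP. Those of related regulators were 0.53, 0.12 and -0.46.

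Groups without overlap were counted as well, since this uses the levels alone. In Nkx2.1 against VIP, 3 of the 10 regulators lay wholly higher (Rbfox1, Elavl2 and Celf2), beside 6.16% of all genes tested, and Nova1 wholly lower, beside 14.6%. In SOM against VIP, Rbfox1, Elavl2 and Celf4 lay wholly higher, beside 10.2% of all genes, and Rbfox3 wholly lower, beside 9.35%. In Nkx2.1 against SOM, Rbfox3 and Celf2 lay wholly higher, beside 4.9%, and none wholly lower, beside 15.5%. A test of any difference among the 3 lines called Rbfox1 alone of the 10 (edgeR, adjusted p = 0.0257), where 0.336% of all genes were called, and DESeq2 also called 1 of the 10, beside 8.23%. This edgeR call was lost without Nkx2.1 replicate 3 (adjusted p = 0.0561), SOM replicate 1 (0.0678), VIP replicate 1 (0.139), VIP replicate 2 (0.0847) or VIP replicate 3 (0.123). The next were Celf2, Elavl2 and Rbfox3, with adjusted p of 0.319, 0.353 and 0.480.

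**Figure D2:**
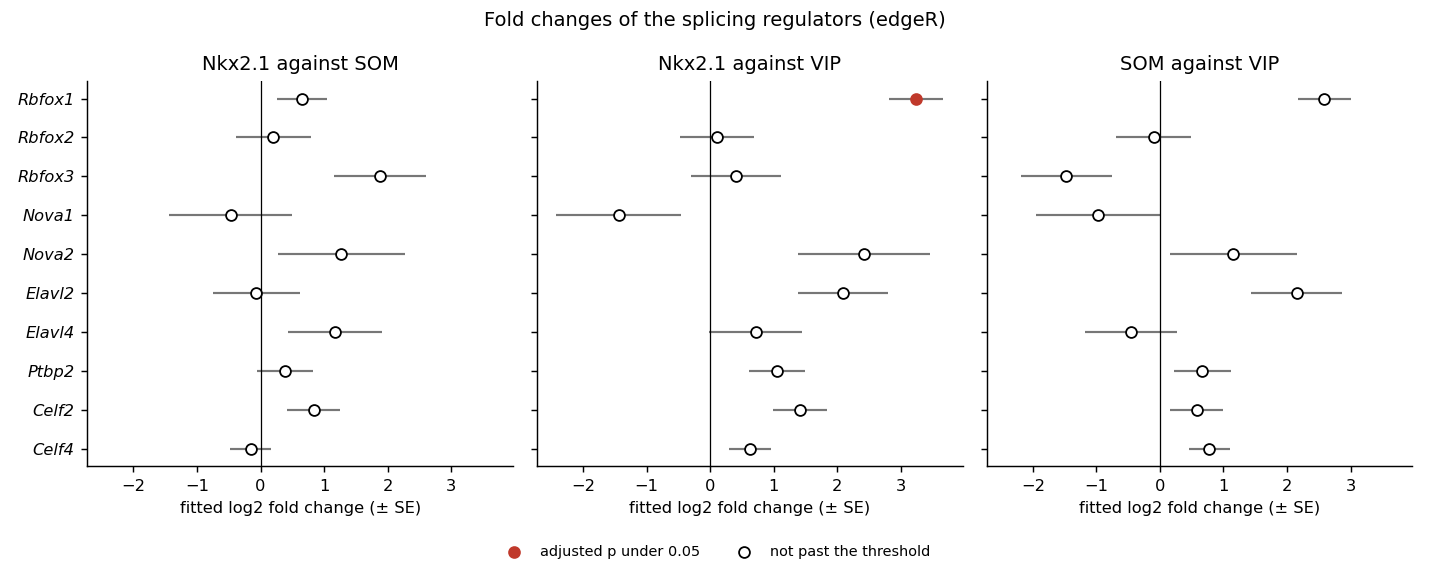
Fitted log2 fold change of each regulator (point) with its SE (line) in 3 panels, Nkx2.1 against SOM, against VIP, and SOM against VIP, where the filled point passed an adjusted p of 0.05 (edgeR). Rbfox1 in Nkx2.1 against VIP, at 3.24, is the filled point, and Nova1 lies below 0 in all 3 panels.

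Levels of different genes can be set side by side only per length of transcript, here as CPM per kilobase of all annotated exons. On that scale Rbfox1 came first in Nkx2.1 pools, at 282 CPM per kb, and in SOM pools, at 197 CPM per kb. In VIP pools Celf4 came first at 93.1 CPM per kb, and Rbfox1 was at 34.0 CPM per kb, between Elavl4 at 59.3 and Rbfox3 at 30.9 CPM per kb. Nova1 was last in Nkx2.1 pools, while Nova2 was last in SOM pools at 7.66 and in VIP pools at 3.56 CPM per kb. The exon union runs over many transcripts of unequal use, such as 25.9 kb for Celf2 against 4.4 kb for Rbfox1, so this order is approximate.

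Within a family, the share of reads that each member held does not depend on library scaling. Rbfox1 held 68.2%, 65.7% and 90.2% of Rbfox reads in the Nkx2.1 pools, 73.1%, 74.8% and 82.3% in the SOM pools and 22.6%, 37.7% and 24.7% in the VIP pools. The VIP pools lay apart from both other groups, and the other reads there were split between Rbfox2, at 57.5%, 28.7% and 30.2%, and Rbfox3, at 19.9%, 33.6% and 45.0%. The log2 ratio of Rbfox2 to Rbfox1 differed by -3.16 between Nkx2.1 and VIP pools and by -2.57 between SOM and VIP pools, and that of Rbfox3 to Rbfox1 by -2.90 and -3.90. None of the 4 pairs of groups overlapped, and each gave p = 0.1 by a two-sided exact permutation test, the smallest that 3 against 3 libraries allow, or 0.15 after Benjamini-Hochberg adjustment over 15 comparisons. Both ratios share the Rbfox1 reads and are not separate evidence.

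Nova2 held 47.3%, 79.2% and 89.1% of Nova reads in Nkx2.1 pools, 60.4%, 26.6% and 59.7% in SOM pools and 13.5%, 10.0% and 20.5% in VIP pools. Nkx2.1 and SOM pools overlapped, and both lay above VIP pools. The log2 ratio of Nova2 to Nova1 was higher by 4.11 in Nkx2.1 than in VIP pools and by 2.44 in SOM than in VIP pools, each with p = 0.1 by the two-sided exact permutation test and no overlap. The summed Nova level was 190 ± 123 CPM in Nkx2.1 pools, 141 ± 57.5 CPM in SOM pools and 186 ± 102 CPM in VIP pools (SD, n = 3 each). These sums overlapped in every comparison.

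Elavl2 held 59.6%, 53.8% and 59.6% of the reads of Elavl2 and Elavl4 in Nkx2.1 pools, 88.9%, 67.4% and 70.1% in SOM pools and 38.5%, 16.7% and 43.5% in VIP pools. This was the one family whose shares did not overlap between any of the 3 lines, with SOM highest and VIP lowest. The log2 ratio of Elavl4 to Elavl2 differed by 1.31 for Nkx2.1 against SOM, -1.56 for Nkx2.1 against VIP and -2.87 for SOM against VIP, each at the smallest exact permutation p of 0.1. Celf2 held 61.7%, 37.1% and 34.0% of the reads of Celf2 and Celf4 in Nkx2.1 pools, 28.8%, 20.2% and 31.2% in SOM pools and 40.9%, 18.1% and 30.6% in VIP pools. The ratio of Celf4 to Celf2 differed by -1.13 on the log2 scale between Nkx2.1 and SOM pools without overlap (exact permutation p = 0.1), and the other Celf comparisons gave exact permutation p of 0.4 for Nkx2.1 against VIP and 0.9 for SOM against VIP. The 95% Wilson intervals of these shares were 0.54 to 3.08 percentage points wide for Rbfox, 2.47 to 7.46 for Nova, 1.35 to 6.54 for Elavl and 1.10 to 2.00 for Celf, and they cover counting error only.

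**Figure D3:**
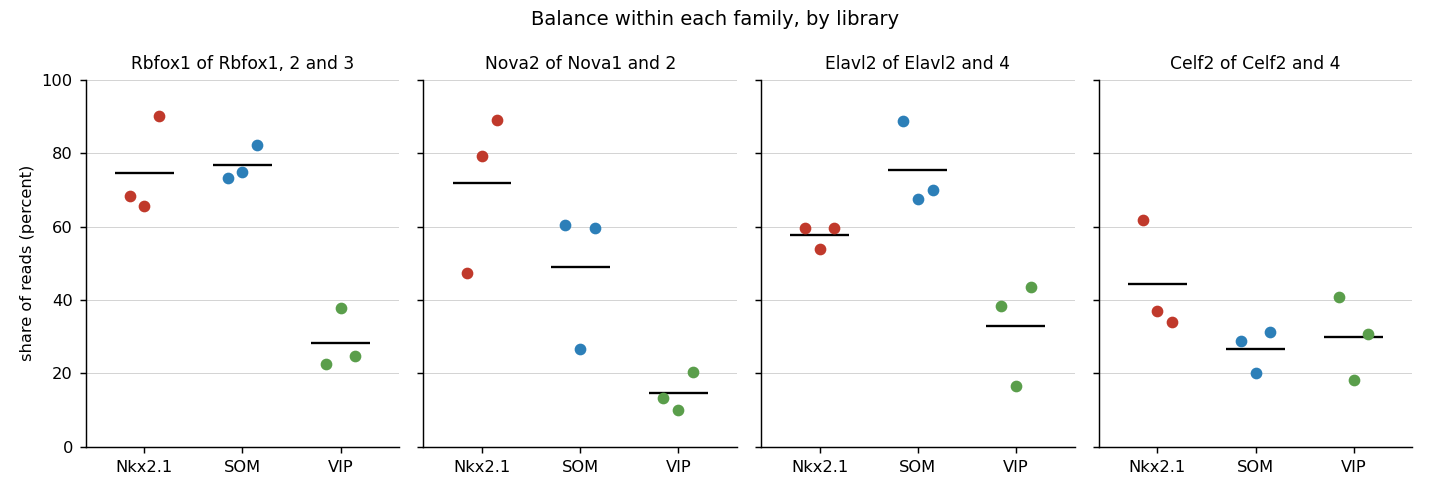
Share of the reads of a family held by Rbfox1, Nova2, Elavl2 and Celf2 in percent, with 1 point per library, a bar at the group mean, and Nkx2.1, SOM and VIP groups from left to right. Rbfox1 shares lie at 65.7% to 90.2% in Nkx2.1 and SOM pools and at 22.6% to 37.7% in VIP pools, and the Elavl2 shares of the 3 lines do not overlap.

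The genes whose pattern lay nearest to that of Rbfox1 were Opcml, Anapc1 and Zfml. They were picked on these same 9 libraries, so their levels by line, and tests of them, are not separate evidence. Likeness was measured over the 9 libraries as the root mean square difference of log2(CPM + 1), each gene centred on its own mean, and came to 0.449 for Opcml, 0.541 for Anapc1 and 0.581 for Zfml. Opcml encodes a GPI-anchored cell adhesion protein of the immunoglobulin superfamily, and averaged 803 ± 112 CPM in Nkx2.1 pools, 528 ± 31.7 CPM in SOM pools and 122 ± 38.5 CPM in VIP pools (SD, n = 3 each). It rose in Nkx2.1 against VIP pools by a log2 fold change of 2.93 ± 0.37 (edgeR, adjusted p = 0.00980). Anapc1, a subunit of the anaphase-promoting complex, had 275, 179.8 and 548 CPM in Nkx2.1 pools, 168, 203 and 184 CPM in SOM pools and 54.8, 80.5 and 48.4 CPM in VIP pools, and was not called. Zfml averaged 361 ± 140 CPM in Nkx2.1 pools, 200.5 ± 56.2 CPM in SOM pools and 70.3 ± 46.3 CPM in VIP pools, and was not called. Of the other regulators, Elavl2 came nearest to Rbfox1 at 0.962, rank 108 among the genes tested, followed by Celf2 at 0.998, rank 135. Nova1 came last of the 10 at 2.38, rank 5827.

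**Figure D4:**
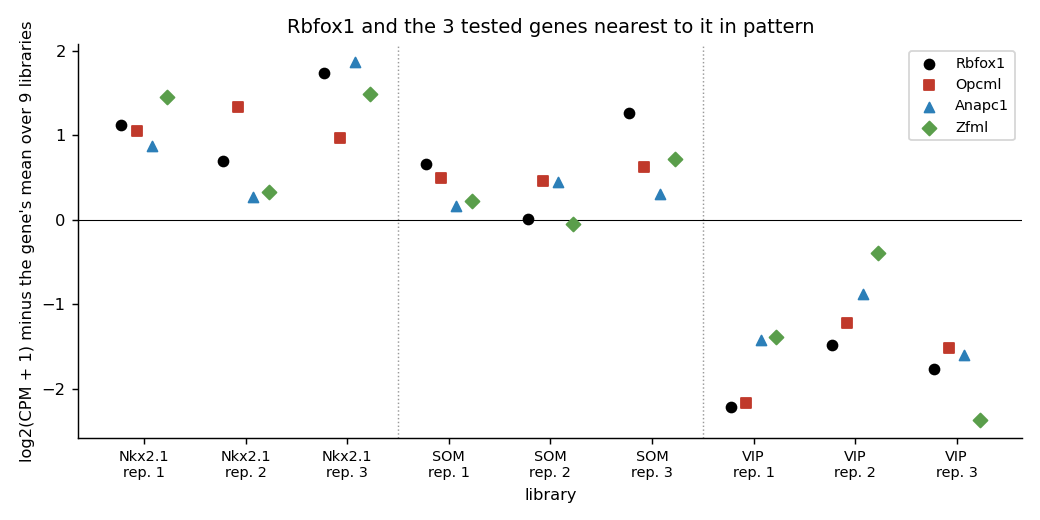
Log2(CPM + 1) of Rbfox1, Opcml, Anapc1 and Zfml in each of the 9 libraries, minus the gene's own mean over the libraries, with dotted lines between Nkx2.1, SOM and VIP groups. All 4 genes lie below their mean in the 3 VIP pools, and Opcml follows Rbfox1 most closely, at a root mean square difference of 0.449. Opcml, Anapc1 and Zfml were picked for their likeness to Rbfox1 over these libraries.

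Related RNA-binding regulators of neurons, a list of 19 genes with Mbnl, Msi, Qk, Srrm4 and further Celf, Elavl and Ptbp genes, held no gene past the edgeR threshold in any comparison. Of the 19, 16 were tested, and their median log2 fold change was 0.53 for Nkx2.1 against SOM, 0.12 for Nkx2.1 against VIP and -0.46 for SOM against VIP. At an unadjusted edgeR p under 0.05, 2, 3 and 1 of them were higher and none lower, and DESeq2 called 0, 2 and 1 higher and none lower. Over all genes, 2.92%, 5.73% and 4.63% were higher by unadjusted p and 1.88%, 4.37% and 3.03% by DESeq2. Muscleblind-like genes had the smallest p in all 3 comparisons. Mbnl1, a splicing regulator sequestered by repeat RNA in myotonic dystrophy, had 1054, 317 and 40.5 CPM in Nkx2.1 pools. Its means were 471 ± 524 CPM in Nkx2.1 pools, 93.2 ± 78.9 CPM in SOM pools and 48.0 ± 18.7 CPM in VIP pools (SD, n = 3 each). The highest value was again Nkx2.1 replicate 1, and the log2 fold change of Mbnl1 for Nkx2.1 against VIP was 3.63 ± 1.12, not past the threshold with edgeR (adjusted p = 0.204) and past it with DESeq2 (adjusted p = 0.0182). Mbnl2, its close relative in brain, averaged 67.7 ± 42.0 CPM in Nkx2.1 pools, 36.0 ± 35.6 CPM in SOM pools and 1.05 ± 1.72 CPM in VIP pools. For Nkx2.1 against VIP the log2 fold change of Mbnl2 was 6.21 ± 2.26, with an adjusted p of 0.247 by edgeR and 0.0024 by DESeq2, and for SOM against VIP it was 5.14 ± 2.15, with 0.655 by edgeR and 0.0427 by DESeq2. Qk, a regulator of glial and neuronal splicing, had 701, 213 and 179 CPM in Nkx2.1 pools and means of 143 ± 34.7 CPM in SOM pools and 134 ± 81.3 CPM in VIP pools, and was not called (edgeR, adjusted p = 0.475 and 0.327). Msi2 averaged 133 ± 82.8 CPM in Nkx2.1 pools and 32.6 ± 6.90 CPM in SOM pools and was not called (edgeR, adjusted p = 0.437). For SOM against VIP, Celf1 averaged 219 ± 76.8 CPM in SOM pools and 380 ± 209 CPM in VIP pools, and Srrm4, which drives neuronal microexons, 83.9 ± 56.9 CPM in SOM pools and 183 ± 44.7 CPM in VIP pools; neither was called by edgeR. Whether the astrocyte or the cell division markers of Nkx2.1 replicate 1 had a part in the values of Mbnl1, Qk and Ptbp1 was not tested. Elavl3, the third neuronal Elavl gene of this set, had no read in any library. It lies on the minus strand of chromosome 9, where 486 of 522 protein-coding genes (93.1%) had no read in any library. No other strand of a chromosome besides Y passed 58.6%, so nothing can be read from the 0 of Elavl3.

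General splicing factors, 32 genes of the SR, hnRNP and core families that all cells use, were all tested, and edgeR called none in any comparison. At an unadjusted edgeR p under 0.05, 5 and 2 were higher and none lower in Nkx2.1 against SOM and against VIP, and 2 were lower and none higher in SOM against VIP, while DESeq2 called 1 in all, Hnrnpa2b1 higher in Nkx2.1 against VIP, where it called 4.37% of all genes higher. By unadjusted p, 2.92% and 5.73% of all genes were higher in Nkx2.1 against SOM and against VIP and 2.36% lower in SOM against VIP, so that 2 of 32 in Nkx2.1 against VIP is near the share of all genes. Their fitted change was above 0 for 23 of the 32 in Nkx2.1 against SOM, 24 in Nkx2.1 against VIP and 19 in SOM against VIP, with medians of 0.63, 0.49 and 0.18 on the log2 scale beside medians of -0.01, 0.00 and 0.00 for all genes. Their summed level was 8115 to 8457 CPM in Nkx2.1 pools, 5522 to 5955 CPM in SOM pools and 5816 to 7845 CPM in VIP pools, so Nkx2.1 pools lay above all others. The 10 regulators summed to 4204, 5804 and 5785 CPM in Nkx2.1 pools, 4505, 3664 and 5082 CPM in SOM pools and 1995, 2594 and 3228 CPM in VIP pools, where all VIP pools were below the rest. Rbfox1 is part of these sums, at 524 to 1745 CPM in Nkx2.1 and SOM pools and 111 to 185 CPM in VIP pools. Without Rbfox1, Nkx2.1 replicate 1 did not lie above VIP replicate 3, so the sums are not separate evidence. Among single genes, the core spliceosome gene Sf3b1 averaged 842 ± 21.4 CPM in Nkx2.1 pools and 472 ± 108 CPM in SOM pools (edgeR, log2 fold change 1.00 ± 0.30, adjusted p = 0.317). Hnrnpa2b1 averaged 1105 ± 161 CPM in Nkx2.1 pools and 526 ± 146 CPM in VIP pools, with a log2 fold change of 1.27 ± 0.29 that missed the threshold with edgeR (adjusted p = 0.133) and passed with DESeq2 (adjusted p = 0.0179). Also in Nkx2.1 against SOM, Hnrnpa2b1 averaged 702 ± 33.5 CPM in SOM pools, and Srsf7 averaged 677 ± 339 CPM in Nkx2.1 pools and 318 ± 83.2 CPM in SOM pools, neither called (edgeR, adjusted p = 0.359 and 0.384). In Nkx2.1 against VIP, Hnrnpu averaged 503 ± 197 CPM in Nkx2.1 pools and 216 ± 105 CPM in VIP pools, and Hnrnpc 179 ± 56.7 CPM in Nkx2.1 pools and 61.9 ± 35.0 CPM in VIP pools, neither called (edgeR, adjusted p = 0.233 and 0.372). Srsf1, the SR protein with the smallest p in SOM against VIP, averaged 122 ± 40.4 CPM in SOM pools and 350 ± 45.0 CPM in VIP pools (edgeR, log2 fold change -1.49, adjusted p = 0.581). Next there were Srsf11, at 136 ± 22.3 CPM in SOM pools and 449 ± 337 CPM in VIP pools, and Sf3b1, at 761 ± 78.4 CPM in VIP pools, also not called (edgeR, adjusted p = 0.687 and 0.720).

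Transcripts known as targets of these regulators, 17 genes that were all tested, held 1 gene called by edgeR, Gap43, and a further one called by DESeq2, Dab1. Gap43, a growth cone protein whose mRNA is bound by HuD, fell in Nkx2.1 against SOM pools, at 530 ± 103 CPM in Nkx2.1 pools and 2360 ± 196 CPM in SOM pools (SD, n = 3 each; edgeR, log2 fold change -1.99 ± 0.27, adjusted p = 0.0360). It rose in SOM against VIP pools, where VIP pools averaged 619 ± 111 CPM (edgeR, log2 fold change 1.96 ± 0.27, adjusted p = 0.0400). SOM pools enter both comparisons. Elavl4, which encodes HuD, averaged 454 ± 273 CPM in Nkx2.1 pools, 224 ± 107 CPM in SOM pools and 320 ± 221 CPM in VIP pools. Its groups overlapped and edgeR called it in no comparison. Whether HuD had a part in the Gap43 values was not tested. In Nkx2.1 against VIP none of the 17 was called, and the smallest p was that of Snap25, a SNARE protein with a switched pair of exons, at 1634 ± 267 CPM in Nkx2.1 pools and 900 ± 203 CPM in VIP pools (edgeR, log2 fold change 1.04 ± 0.26, adjusted p = 0.156). Agrn, which encodes agrin, averaged 453 ± 105 CPM in Nkx2.1 pools and 286 ± 72.0 CPM in VIP pools and was not called (edgeR, adjusted p = 0.342). At an unadjusted edgeR p under 0.05, 3 of the 17 were higher and 1 lower in Nkx2.1 against SOM, beside 2.92% and 8.38% of all genes. In Nkx2.1 against VIP 2 were higher and none lower, beside 5.73% and 9.43%, and in SOM against VIP 2 were higher and 2 lower, beside 4.63% and 2.36%. DESeq2 called 1 higher and 1 lower in Nkx2.1 against SOM (beside 1.88% and 7.01% of all genes), none in Nkx2.1 against VIP (beside 4.37% and 8.62%), and 1 higher and 1 lower in SOM against VIP (beside 3.03% and 1.57%). Dab1, the Reelin adaptor whose exons Nova2 controls, is described after its values were seen. It had 706, 98.5 and 186 CPM in Nkx2.1 pools, 5.34, 8.79 and 19.6 CPM in SOM pools and 542, 379 and 688 CPM in VIP pools. The SOM pools lay below all the others, while Nkx2.1 and VIP pools overlapped. The log2 fold change of Dab1 was 5.14 ± 0.93 for Nkx2.1 against SOM, not past the threshold with edgeR (adjusted p = 0.111) and past it with DESeq2 (adjusted p = 5.72e-06). For SOM against VIP it was -5.54 ± 0.95, again past the threshold with DESeq2 (adjusted p = 8.52e-07) and not with edgeR (adjusted p = 0.0783). The median log2 fold change of the 17 was -0.03 in Nkx2.1 against SOM, -0.03 in Nkx2.1 against VIP and -0.02 in SOM against VIP, beside medians of -0.01, 0.00 and 0.00 for all genes. Splicing of these transcripts was not measured here.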

How the data were processed

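Reads were counted per gene symbol by the submitters, and the deposited files hold raw counts of 1 library each. The submitters' processing notes name TopHat2 2.0.9, DESeq2 and mm10; how reads were counted, and on which strand, is not given in the sources used here. In each file, 5 entries that name no gene held 83.6% to 85.2% of the total and were left out. Most of this was alignments that were not unique, 64.5% to 68.0% of the total, which were not counted for any gene. Whether this lowered the counts of genes that resemble others was not tested. CPM are reads per 1000000 reads in named genes.

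Counts were tested in R 4.3.3 with the edgeR 4.0.16 quasi-likelihood test: all 9 libraries in 1 fit, group as the only term, TMM factors, filterByExpr (minimum count 10), and Benjamini-Hochberg adjustment over 10728 genes at 0.05. The SE is the size of the log2 fold change over the square root of the F statistic. Log2 ratios within families used CPM + 1 and two-sided exact permutation tests over libraries. Common biological variation was 1.40, so only large differences can pass.

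The 10 genes and all lists were chosen with earlier results of these data known. All 10 are named in each comparison; of other lists, called genes, or the 3 with the smallest p where none was called. One gene that this rule names is not reported here. The edgeR fit was tested on simulated counts with a smaller spread between libraries than these data. That test does not show how the fit behaves at the spread found here. Alternatives were DESeq2 1.42.0, RLE or no TMM factors, no filter, the groups compared alone, a replicate block, and leaving out each library; ratios were also taken with CPM + 0.25.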

Additional observations from a re-analysis of the deposited data

How the results depend on the processing

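Of the fitted changes of the 10 regulators, 174 kept direction and call under settings other than leaving out a library, 3 turned direction and 3 gained a call. The cause was not tested. Elavl2 in Nkx2.1 against SOM turned to 0.040 with DESeq2 and 0.038 with RLE factors, and Rbfox2 in Nkx2.1 against VIP to -0.11 without TMM factors, which moved the median of all genes by -0.15, -0.19 and -0.04 in the 3 comparisons. DESeq2 called 199 genes higher and 743 lower in Nkx2.1 against SOM, 463 and 914 in Nkx2.1 against VIP, and 329 and 171 in SOM against VIP, with 855 differing among the lines, and called 2 regulators in Nkx2.1 against VIP and 1 in SOM against VIP. edgeR called 7 and 3, 19 and 14, and 6 and 2, with 36 among the lines. In SOM against VIP, no filter gave 14 higher and 7 lower genes with 1 regulator, and no TMM factors 1 lower gene. Fits of the 2 groups compared alone gave 4 higher and 1 lower in Nkx2.1 against SOM, 10 higher in Nkx2.1 against VIP, and 14 and 18 in SOM against VIP. Same-numbered libraries did not vary together more than others. Their correlations were -0.048 to 0.068, beside -0.073 to 0.075 for libraries with different numbers. With 3 libraries a group, this cannot exclude a shared litter or batch. A replicate block gave 3 and 1, 8 and 3, and 3 and 1 genes, with 14 genes and 0 regulators differing among the lines; Rbfox1 had an adjusted edgeR p of 0.0473 in Nkx2.1 against VIP and 0.0791 among the lines.

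Leaving out 1 library gave 0 to 8 higher and 0 to 29 lower genes in Nkx2.1 against SOM, 9 to 18 and 3 to 36 in Nkx2.1 against VIP, 3 to 9 and 0 to 8 in SOM against VIP, and 17 to 59 genes and 0 to 1 regulators among the lines. The call of Rbfox1 in Nkx2.1 against VIP (0 to 1 regulators) was lost without VIP replicate 1 or 3. Among the lines it was lost without Nkx2.1 replicate 3, SOM replicate 1 or any of VIP replicates 1, 2 and 3. In 13 such refits a regulator turned direction: Rbfox2 ran from -0.11 to 0.54, -0.19 to 0.53 and -0.31 to 0.28 in the 3 comparisons, Elavl2 from -0.45 to 0.19, Celf4 from -0.42 to 0.15 and Nova1 from -0.84 to 0.23 in Nkx2.1 against SOM, and Rbfox3 from -0.050 to 0.86 in Nkx2.1 against VIP. The ratio of Rbfox2 to Rbfox1 ran from -1.003 to 0.076 in Nkx2.1 against SOM and that of Celf4 to Celf2 from -0.20 to 0.62 in SOM against VIP. Under their other settings all 30 values of the family ratios kept direction. All regulators had 95 reads or more. Ptbp1 had 0, 4 or 7 reads in all libraries but Nkx2.1 replicate 1, near a floor of 3 reads (0.241 to 0.463 CPM). Differences at that level were not detectable. Elavl3 had 0 reads in every library, from which nothing can be read, as stated above.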
